A study of Mus musculus with 8 samples.

Results

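Genes that mark or drive the passage between epithelial and mesenchymal states were followed in PyMt mammary tumors by bulk RNA-Seq. They were chosen by name as a biological group, and are 10 of 55414 gene identifiers in the count table. Cdh1, Epcam and Grhl2 stand for the epithelial state, Cdh2 and Vim for the mesenchymal state, and Zeb1, Zeb2, Snai1, Snai2 and Twist1 are transcription factors that move cells toward the latter.

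The PyMt line was grown from a tumor of the MMTV-PyMt mouse, a transgenic strain in which a promoter active in mammary epithelium drives the polyoma middle T antigen, and its cells were placed in the inguinal mammary fat pad of female C57BL/6 mice aged 6 to 8 weeks. From day 2 after implantation the skin over the tumor received 20 nmol of the vitamin D analog calcipotriol dissolved in ethanol (EtOH), or EtOH alone, every 2 days, and tumors were taken 24 h after the last dose. There were 4 EtOH tumors, numbered 1 to 4, and 4 calcipotriol tumors, numbered 1, 5, 6 and 7. All are labelled WT, and the labels do not say whether this refers to the mice or to the implanted cells. Each library held between 19685397 and 25084715 counts. The comparison asks which of the 10 genes differed between calcipotriol and EtOH tumors.

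In an epithelium, E-cadherin and its catenin partners hold neighboring cells together, and grainyhead factors keep the junction genes active. During an epithelial-mesenchymal transition, factors of the ZEB, SNAIL and TWIST families repress these genes, and cells take on vimentin filaments and N-cadherin. Mammary carcinoma cells can sit anywhere between these states, and tumor stroma is itself mesenchymal.

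None of the 9 genes that could be tested passed both thresholds of edgeR's quasi-likelihood test, which were 0.05 for the adjusted p and 1 for the size of the log2 fold change, against 2.02% of all 14458 genes tested. DESeq2 and limma-voom also called 0 of the 9 by both thresholds. At an unadjusted p under 0.05, edgeR gave 3 of the 9 (Cdh2, Vim and Twist1), against 18.4% of all genes tested. All 3 were lower with calcipotriol. The groups of tumors did not overlap for 2 of the 9 (Cdh2 and Vim), against 12.5% of all genes tested. Of the 9, 4 had a positive and 5 a negative fold change, with a median log2 fold change of −0.39 against 0.02 for all genes tested. The tenth gene, Grhl2, was removed by the filter on low counts. The measurement was made on whole tumors, so fewer cells of a type and less RNA per cell cannot be told apart for any gene below.

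**Figure D1:**
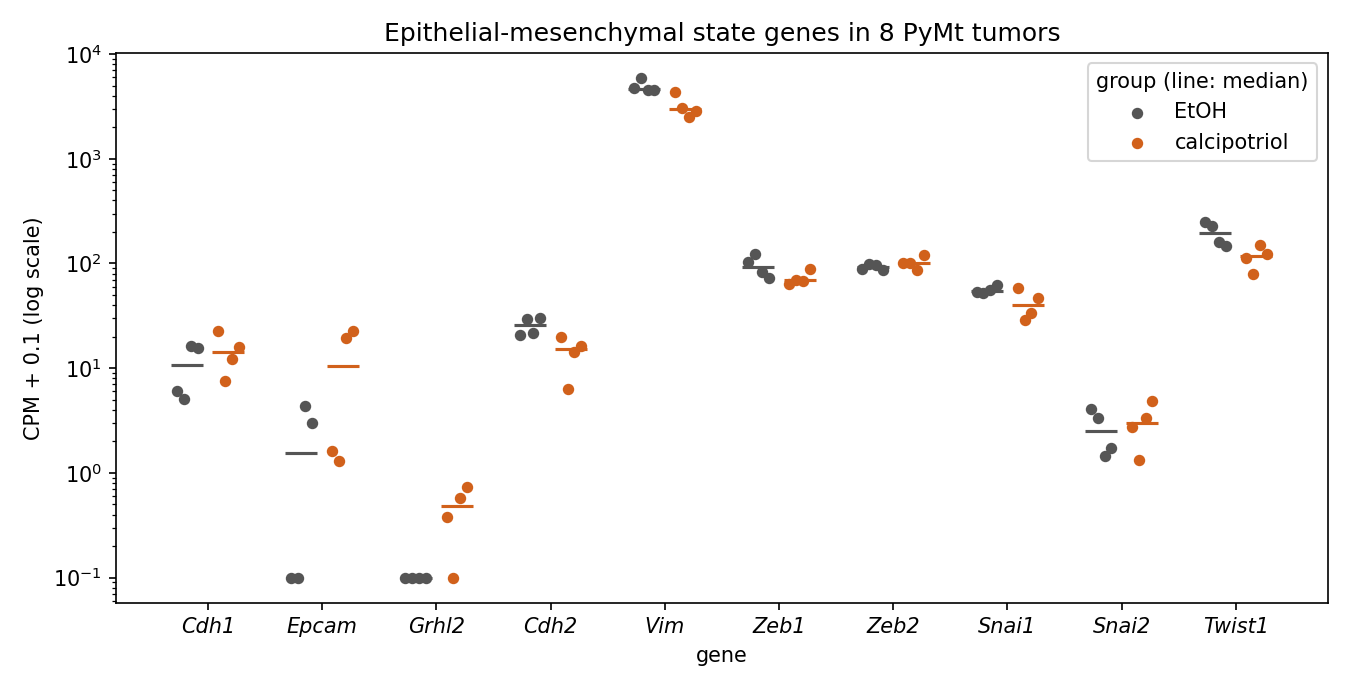
CPM, counts per 1000000 counts of a library, plus 0.1 on a log axis for the 10 genes, with 1 point for each tumor, gray for EtOH and orange for calcipotriol, and a line at each group's median. Cdh2 and Vim are the genes whose groups do not overlap, and Epcam spreads from 0 to 22.7 CPM.

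Levels are given as CPM, with libraries scaled by the trimmed mean of M-values (TMM), and levels of different genes are compared as CPM per kb of annotated exon. A marker list is said to be led by the gene that adds the most CPM to its sum. On that per-length scale the order over the 8 tumors ran from Vim (856 ± 242, mean ± SD, n = 8) through Twist1 (96.1 ± 35.2), Snai1 (30.05 ± 7.31), Zeb1 (8.20 ± 1.99) and Zeb2 (4.88 ± 0.547) down to Epcam (2.94 ± 4.14), Cdh1 (2.75 ± 1.33), Cdh2 (2.45 ± 0.978), Snai2 (1.36 ± 0.635) and Grhl2 (0.0202 ± 0.0301). From Vim to Zeb2, each gene was above the next in 8 of 8 tumors. For Zeb1 and Zeb2 this rests on exon length, since in CPM Zeb2 exceeded Zeb1 in EtOH tumors 3 and 4 and in all 4 calcipotriol tumors. Epcam, Cdh1 and Cdh2 were not separated beyond their spread, since Epcam exceeded Cdh1 in 2 of 8 tumors and Cdh1 exceeded Cdh2 in 5 of 8. Snai2 was below Cdh2 in 7 of 8 tumors and above Grhl2 in 8 of 8. The place of Epcam rests on calcipotriol tumors 6 and 7, since its mean per kb was 0.816 in EtOH tumors, below Cdh2 (3.15), Cdh1 (2.32) and Snai2 (1.26), and 5.07 in calcipotriol tumors. In EtOH tumors, 99.7% of the tested genes lay below Vim per kb, 97.3% below Twist1 and 90.3% below Snai1, but 35.9% lay below Cdh1 and 19.9% below Epcam.

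The labels call the cell type epithelial. Among the defining genes of that state, Grhl2 was at 0 counts in all 4 EtOH tumors and Epcam at 0 in EtOH tumors 1 and 2, while Cdh1 stayed at or under 16.2 CPM in every EtOH tumor. Of the keratins of simple epithelia, Krt8 stood between 523 and 652 CPM and Krt18 between 462 and 665 CPM in EtOH tumors. Krt19 measured 0, 0, 6.04 and 7.15 CPM and Krt7 0, 0, 0.567 and 1.15 CPM in EtOH tumors 1 to 4, at 0 in the same tumors as Epcam. The luminal milk genes Csn2 and Wap were at 0 counts in all 8 tumors. Csn3, a further milk gene, had 0, 0, 61 and 10 counts in EtOH tumors 1 to 4. It had 52, 37, 40 and 63 counts in calcipotriol tumors 1, 5, 6 and 7. Among these genes, the label was thus met by Krt8 and Krt18. It was not met by Epcam, Grhl2, Krt7 or Krt19, whose RNA was low or not detected in EtOH tumors. Cdh1 lay between, detected in every EtOH tumor but at or under 16.2 CPM. Of the 40 other epithelial genes listed below, Tjp1, F11r and Spint1 stood between 18.5 and 214 CPM in EtOH tumors, whereas 20 were too low to test.

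Neither group was uniform. Across genes, log2 CPM correlated at 0.959 between EtOH tumors 1 and 2 and at 0.958 between tumors 3 and 4, against a lowest value of 0.919 within the group. Calcipotriol tumor 1 correlated with the other calcipotriol tumors at 0.931 to 0.945, against 0.958 to 0.977 among tumors 5, 6 and 7. Pairs of an EtOH and a calcipotriol tumor correlated at 0.896 to 0.938, so some were closer than the least alike EtOH tumors. These are correlations over genes, which are not independent replicates. The mean squared difference between a pair of libraries, in units of counting error, was 20.2 to 107 in the EtOH group and 43.3 to 133 in the calcipotriol group, so no library was a copy of another. Several of the values below follow this arrangement, and most members and marker sums are given tumor by tumor. Some other genes, such as Fn1 and Tgfb1, are given as group means only.

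Epithelial adhesion was represented by Cdh1 (ENSMUSG00000000303, chr8:106603351-106670246) and Epcam (ENSMUSG00000045394, chr17:87635979-87651129), with positions on GRCm38. Cdh1, which encodes E-cadherin, measured 5.93, 5.01, 16.2 and 15.3 CPM in EtOH tumors 1 to 4. It measured 22.6, 7.49, 12.3 and 15.9 CPM in calcipotriol tumors 1, 5, 6 and 7. The ranges overlapped, EtOH tumors 1 and 2 were the lowest of the 8, and calcipotriol tumor 1 was the highest. The log2 fold change, calcipotriol over EtOH, was 0.45 ± 0.44 (SE) with a 95% interval of −0.52 to 1.42 and an adjusted p of 0.634 by edgeR's quasi-likelihood test.

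Epcam encodes an adhesion molecule of simple epithelia, and it varied more than any other tested member. It measured 0, 0, 4.29 and 2.87 CPM in EtOH tumors 1 to 4, from 0, 0, 106 and 65 counts. In calcipotriol tumors 1, 5, 6 and 7 it measured 1.51, 1.19, 19.1 and 22.7 CPM, from 38, 26, 398 and 536 counts. Calcipotriol tumors 6 and 7 stood far above the others, whereas calcipotriol tumors 1 and 5 lay inside the EtOH range. The log2 fold change was 2.62 ± 1.33 (SE), and its 95% interval of −0.33 to 5.57 held both no difference and a large one (edgeR's quasi-likelihood test, adjusted p = 0.328). A count of 0 in these libraries allows up to 3 counts, or 0.1459 CPM in EtOH tumor 1 and 0.1460 CPM in EtOH tumor 2.

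The tested genes whose profile over the 8 tumors was closest to that of Epcam were Efemp1 and Krt7, with root mean square differences of 0.98 and 0.99 in log2 CPM after each gene was centered on its mean, among 11941 candidates. Krt7, a keratin of simple epithelia, was at 0, 0, 0.567 and 1.15 CPM in EtOH tumors 1 to 4 and at 2.38, 1.23, 17.2 and 16.2 CPM in calcipotriol tumors 1, 5, 6 and 7. Its high values in tumors 6 and 7 follow from the choice of Krt7 by its likeness to Epcam. The match was also loose, since the closest genes of the other members lay at 0.05 to 0.21. Krt14, a keratin of basal and epidermal cells, rose past both thresholds (log2 fold change 5.17 ± 1.07, adjusted p = 0.0336 by edgeR's quasi-likelihood test). It measured 0.584, 0, 1.499 and 0.662 CPM in EtOH tumors 1 to 4, against 1.59, 10.2, 46.3 and 43.4 CPM in calcipotriol tumors 1, 5, 6 and 7. The Krt14 call was lost on leaving out any 1 tumor except calcipotriol tumor 1, with adjusted p up to 0.1003, and limma-voom gave 0.446. With 12, 0, 37 and 15 counts in EtOH tumors 1 to 4, Krt14 reached the filter on low counts only with the calcipotriol tumors, where it was higher.

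Markers of other epithelia and of tissue around the tumor were listed beside Epcam. There were 9 skin keratinocyte markers, since the list of 10 held Lor under 2 names. Their summed level was 14.9, 11.8, 14.5 and 14.2 CPM in EtOH tumors 1 to 4 and 6.16, 16.4, 64.1 and 50.6 CPM in calcipotriol tumors 1, 5, 6 and 7. Krt14 had the highest mean over the 8 tumors, but per kb Lor, which encodes the cornified envelope protein loricrin, exceeded it in all 4 EtOH tumors and calcipotriol tumor 1. Lor measured 11.8, 9.64, 7.41 and 8.51 CPM in EtOH tumors and 2.78, 2.06, 9.23 and 4.49 CPM in calcipotriol tumors, with a log2 fold change of −1.01 (edgeR adjusted p = 0.246). Of the 4 skin markers tested, 2 had positive and 2 negative fold changes, and Flg and Dsg1a were at 0 in all 8 tumors. The 8 skeletal muscle markers, led by Acta1, summed to 1.22, 1.61, 42.9 and 50.4 CPM in EtOH tumors and 1.07, 1.51, 6.87 and 5.85 CPM in calcipotriol tumors. In each group, the 2 tumors with the most Epcam were also the 2 with the most muscle RNA. The part of skin or adjacent tissue in the Epcam values was not tested.

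**Figure D2:**
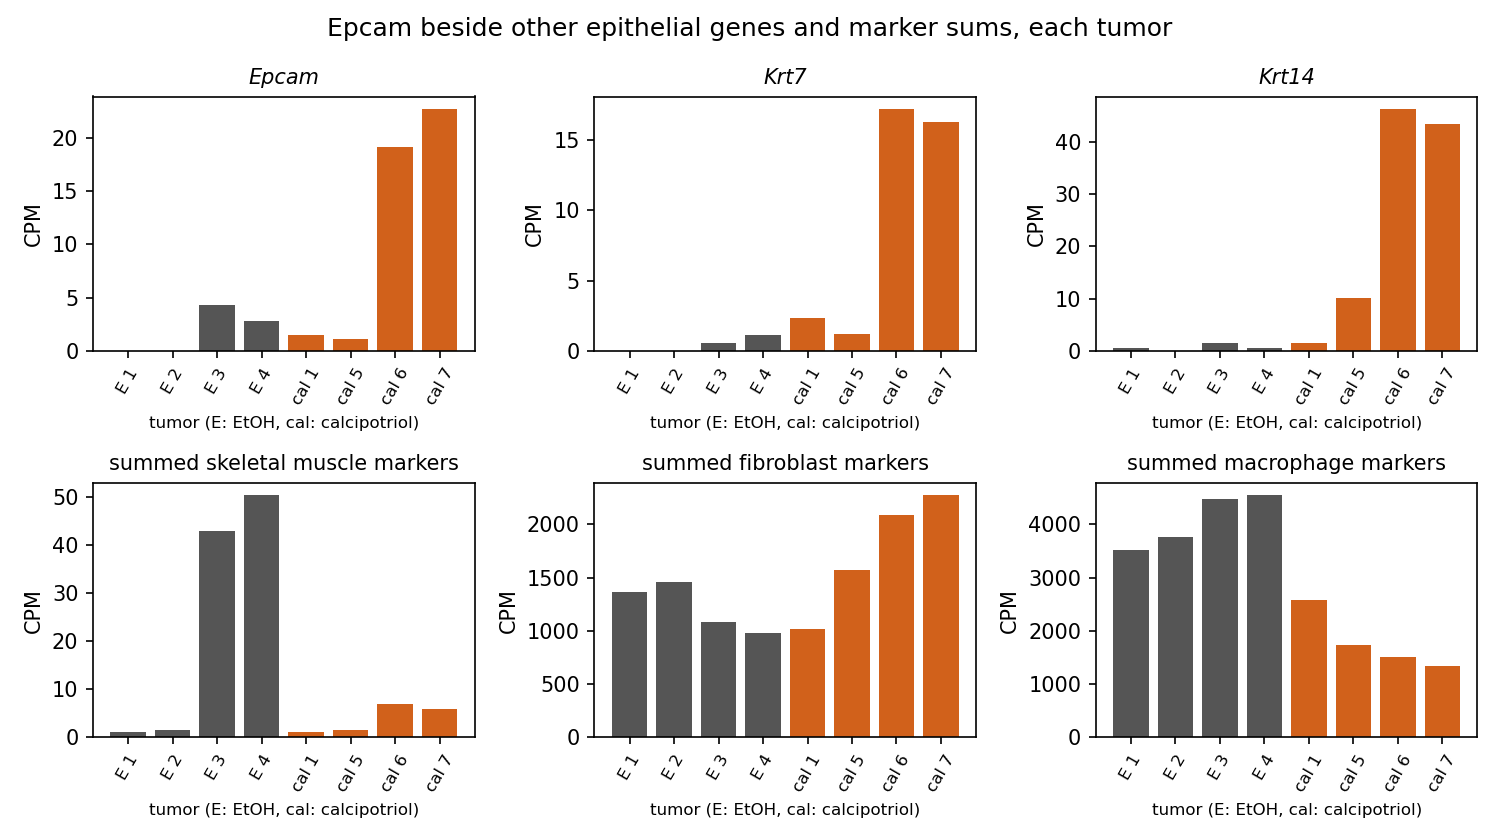
Bars from 0 give CPM in each of the 8 tumors for Epcam, Krt7 and Krt14 and for the summed markers of skeletal muscle, fibroblasts and macrophages, gray for EtOH (E) and orange for calcipotriol (cal). Epcam, Krt7 and Krt14 are highest in calcipotriol tumors 6 and 7, and muscle markers are highest in EtOH tumors 3 and 4. Krt7 was chosen for a profile close to that of Epcam.

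Grhl2 (ENSMUSG00000022286, chr15:37233036-37363569) encodes a grainyhead factor that sustains Cdh1 and other junction genes. It had 0 counts in each of the 4 EtOH tumors and 7, 0, 10 and 15 counts in calcipotriol tumors 1, 5, 6 and 7, or up to 0.636 CPM. It was detected in 3 of 4 calcipotriol tumors, and the remaining one was at 0 like the EtOH group. Against a floor of 3 counts per library in the EtOH tumors, the calcipotriol mean was at least 2.555-fold higher. An exact permutation test on log2 CPM (two-sided, 70 arrangements of the 8 tumors) gave p = 0.143, where the smallest p possible is 0.0286. The fold rests on few counts, from which reads of the antisense gene Gm16136 cannot be told apart if counting ignored strand.

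Among 40 other genes of the epithelial state, 20 were too low to test, and 6 of these 40 were at 0 counts in all EtOH tumors (Cgn, Crb3, Ovol1, Ovol2, Grhl3 and Elf5). Of the 20 tested, 1 was called higher and 1 lower, against 1.07% and 0.948% of all genes, and the median log2 fold change was 0.21 against 0.02. By sign, 13 were positive and 7 negative. An unadjusted p under 0.05 was reached by 8 of the 20, against 18.4% of all genes, and 6 did not overlap between the groups (Cldn3, Krt7, Krt8, Krt18, Spint1 and Spint2), against 12.5%. Some of these genes reached the filter on low counts only with the calcipotriol tumors, which favors genes that are higher there. In EtOH tumors 1 to 4, Cldn3 had 16, 5, 13 and 4 counts, Krt7 0, 0, 14 and 26, and Spint2 10, 0, 65 and 46. A filter of at least 10 counts in every tumor removed these genes. It left 10 genes of the list tested, and edgeR called Spint1 alone. The 2 edgeR calls (Cldn3 and Spint1) became 6 without calcipotriol tumor 1, 1 without EtOH tumor 2 or 4 or calcipotriol tumor 5, 6 or 7, and 4 with no filter on low counts. Calls over all genes moved too, from 292 to 642 without calcipotriol tumor 1 and to 458 with no filter. They fell to between 110 and 233 in the other fits named. The tight junction gene Cldn3 rose, from 0.778, 0.243, 0.527 and 0.176 CPM in EtOH tumors 1 to 4 to 7.95, 7.26, 7.26 and 4.03 CPM in calcipotriol tumors 1, 5, 6 and 7 (log2 fold change 3.93 ± 0.52, edgeR adjusted p = 0.00654). All 4 calcipotriol tumors were above all 4 EtOH tumors, and the call held in 13 of the 13 alternatives that tested the gene. Spint1, an inhibitor of membrane serine proteases, fell, from 18.5, 19.6, 40.1 and 45.4 CPM to 14.2, 5.48, 7.74 and 4.79 CPM in the same order (log2 fold change −1.94 ± 0.41, edgeR adjusted p = 0.0345). Its groups did not overlap either, but leaving out any of EtOH tumors 2, 3 and 4 or calcipotriol tumors 5, 6 and 7 ended the call, with adjusted p from 0.0516 to 0.108. Spint2, a related inhibitor, measured 0.486, 0, 2.63 and 2.03 CPM in EtOH tumors and 5.76, 19.6, 16.4 and 10.2 CPM in calcipotriol tumors. It was called by DESeq2 but not by edgeR (log2 fold change 3.31 ± 0.85, edgeR adjusted p = 0.0684) or limma-voom, although edgeR called it with no filter and without calcipotriol tumor 1.

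The keratins Krt8 and Krt18, which pair in filaments of simple epithelia, had negative fold changes, and neither passed both thresholds. Krt18 measured 596, 665, 462 and 509 CPM in EtOH tumors 1 to 4 and 348, 296, 259.7 and 268 CPM in calcipotriol tumors 1, 5, 6 and 7. The groups did not overlap, and the log2 fold change of −0.93 ± 0.16 had an adjusted p of 0.0162 by edgeR's quasi-likelihood test but fell short of the fold minimum. It passed both thresholds when EtOH tumor 3 (−1.01) or calcipotriol tumor 1 (−1.02) was left out, and its edgeR adjusted p rose to 0.0606 without calcipotriol tumor 6 and to 0.0560 without tumor 7. Its partner Krt8 had a log2 fold change of −0.69 ± 0.20 and an adjusted p of 0.0966. The other abundant epithelial genes of the list, the junction scaffold Tjp1 and the junctional adhesion gene F11r, had log2 fold changes of −0.36 and −0.03, with edgeR adjusted p of 0.313 and 0.980.

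Partners of cadherins at adherens junctions ranged widely in level. In EtOH tumors the catenins Ctnnb1, Ctnna1 and Ctnnd1 stood at 114, 83.1 and 30.1 CPM per kb, against 0.663 for Nectin4 and 0.252 for Plekha7. Of 12 listed and tested, 2 had positive and 10 negative fold changes, 0 were called by edgeR, DESeq2 or limma-voom and 0 reached an unadjusted p under 0.05 by edgeR, against 18.4% of all genes, and the median log2 fold change was −0.12 against 0.02. Ctnnb1, which encodes beta-catenin, measured 593 ± 55.3 CPM in EtOH tumors and 586 ± 10.96 CPM in calcipotriol tumors (SD, n = 4 each). Its 95% interval of −0.28 to 0.25 in log2 fold change left no room for a difference of the called size. Ctnna1, Jup and Ctnnd1, the next most abundant per kb, had log2 fold changes of −0.09, −0.35 and −0.18. Per kb, Ctnnb1 stood at 114 in EtOH tumors, where Cdh1 stood at 2.32 and Cdh2 at 3.15.

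Of the mesenchymal genes, Cdh2 (ENSMUSG00000024304, chr18:16588877-16809246) encodes N-cadherin. It measured 20.4, 29.7, 21.4 and 30.1 CPM in EtOH tumors 1 to 4 and 19.6, 6.21, 14.3 and 16.2 CPM in calcipotriol tumors 1, 5, 6 and 7. Every calcipotriol tumor was below every EtOH tumor, although calcipotriol tumor 1 was close to the lowest EtOH value. The log2 fold change was −0.85 ± 0.31 with a 95% interval of −1.53 to −0.17 (edgeR's quasi-likelihood test, unadjusted p = 0.0186, adjusted p = 0.173). Apba1 and Mmp15 had the profiles closest to it, with root mean square differences of 0.15 and 0.17.

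Vim (ENSMUSG00000026728, chr2:13573927-13582826) encodes the intermediate filament vimentin and was the most abundant of the 10 genes. It measured 4737, 5910.1, 4521 and 4535 CPM in EtOH tumors 1 to 4 and 4349, 3042, 2503 and 2888 CPM in calcipotriol tumors 1, 5, 6 and 7. The groups did not overlap, and calcipotriol tumor 1 was again the one nearest to EtOH. The log2 fold change was −0.62 ± 0.19 with a 95% interval of −1.05 to −0.19 (edgeR's quasi-likelihood test, unadjusted p = 0.00872, adjusted p = 0.121). The adjusted p for Vim was 0.0151 by DESeq2, and 0.0184 by edgeR without calcipotriol tumor 1, where the log2 fold change was −0.81. Over all its alternatives the adjusted p ran from 0.0151 to 0.287. Tifa and Enox1 had the closest profiles, at 0.05 and 0.07.

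Vimentin is also made by fibroblasts and macrophages, so their markers stand beside it. The 10 macrophage markers, led by Lyz2, summed to 3509, 3763, 4466 and 4552 CPM in EtOH tumors 1 to 4 and 2575, 1739.6, 1517 and 1337 CPM in calcipotriol tumors 1, 5, 6 and 7, without overlap. Of the 10, edgeR called 3 lower (Lyz2, Csf1r and Adgre1), against 0.948% of all genes, and 0 higher, and none was at 0. DESeq2 called 5 and limma-voom 4. The calls of Csf1r and Adgre1 were lost on leaving out any 1 tumor except calcipotriol tumor 1, with edgeR adjusted p up to 0.113 and 0.106, whereas Lyz2 held in 8 of 8 such fits. Without calcipotriol tumor 1, edgeR called 7 of the 10, in a fit that called 642 genes in all, against 292 with all tumors. The 10 fibroblast markers, led by Dcn, summed to 1369.7, 1459, 1086 and 976 CPM in EtOH tumors and 1014, 1575, 2089.7 and 2277 CPM in calcipotriol tumors, and 0 were called by edgeR, DESeq2 or limma-voom, with 1 (Dcn) at an unadjusted p under 0.05 by edgeR, against 18.4% of all genes. The higher sums in calcipotriol tumors 5, 6 and 7 rested on Dcn, since the other 9 summed to between 684 and 913 CPM in EtOH tumors and between 584 and 899.9 CPM in calcipotriol tumors. Of the 10, 5 had positive and 5 negative fold changes. Dcn had a log2 fold change of 1.23 (edgeR adjusted p = 0.136), and without calcipotriol tumor 1 it passed both thresholds (1.52, edgeR adjusted p = 0.008). Thus Vim, Cdh2 and the macrophage sum were lower in all 4 calcipotriol tumors, and calcipotriol tumor 1 lay nearest to EtOH in each of the 3. For macrophages, the paper reports the other direction by staining, with higher numbers in calcipotriol tumors of mice also given control IgG. The part of macrophages in the Vim values was not tested.

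Cells of vessels carry N-cadherin and vimentin too. The 10 endothelial markers, led by Cdh5, summed to 337, 382, 177 and 177 CPM in EtOH tumors 1 to 4 and 131, 67.7, 96.5 and 99.8 CPM in calcipotriol tumors 1, 5, 6 and 7. All 10 had negative fold changes, and edgeR called 5 lower (Pecam1, Kdr, Tie1, Robo4 and Esam), against 0.948% of all genes, DESeq2 8 and limma-voom 3. Kdr and Robo4 were called in 8 of 8 fits with 1 tumor left out. Pecam1 and Tie1 were called in 3 of 8, were lost without EtOH tumor 1 or 2 or calcipotriol tumor 5, 6 or 7 (edgeR adjusted p up to 0.103 and 0.1204), and had adjusted p of 0.0522 and 0.0998 by limma-voom. Esam was lost without calcipotriol tumor 5 (edgeR adjusted p = 0.0525) or 7 (0.0535). The 8 mural cell markers, led by Pdgfrb, summed to 860.4, 755, 399.6 and 388 CPM in EtOH tumors and 499.7, 322, 452 and 479.9 CPM in calcipotriol tumors, and edgeR called 1 (Rgs5, lower at −2.60), as did limma-voom, against 4 by DESeq2. The overlap of these sums rested on Pdgfrb, since the other 7 markers summed to between 83.7 and 187 CPM in EtOH tumors and between 37.3 and 60.5 CPM in calcipotriol tumors. Of the 8, 7 had negative fold changes, with a median of −1.54 in log2 against 0.02 for all genes. None of these 18 markers was at 0 in all EtOH tumors, and their part in the Cdh2 values was not tested.

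Other genes of the mesenchymal state gave no call. Of 30 listed and tested, 11 had positive and 19 negative fold changes, 0 passed both thresholds by edgeR, DESeq2 or limma-voom and 10 reached an unadjusted p under 0.05 by edgeR, against 18.4% of all genes tested, and the median log2 fold change was −0.16 against 0.02 for all genes. The most abundant per kb, on average over the 8 tumors, were S100a4, Fn1, Sparc and Col3a1. Fn1, which encodes fibronectin, had a positive fold change that was not called, with 9467 ± 2132 CPM in EtOH tumors and 14138 ± 2652 CPM in calcipotriol tumors (SD, n = 4 each, log2 fold change 0.58 ± 0.21, edgeR adjusted p = 0.18002). Sparc and Col3a1 both had a log2 fold change of −0.52 (adjusted p = 0.113 and 0.236 by edgeR), and S100a4 one of 0.08. Their summed level overlapped between the groups.

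**Figure D3:**
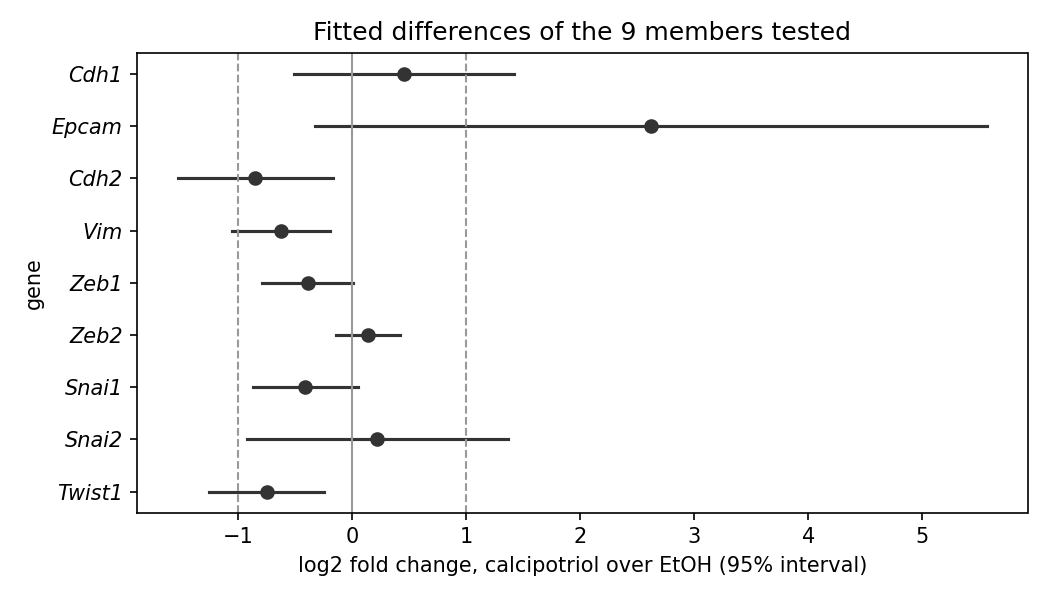
Log2 fold change, calcipotriol over EtOH, with its 95% interval for the 9 tested members, from the edgeR fit across 14458 genes, with solid and dashed lines at 0 and at a log2 fold change of 1 in either direction. The intervals of Cdh2, Vim and Twist1 lie below 0, and that of Epcam runs from −0.33 to 5.57.

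The ZEB factors bind paired E-boxes and repress Cdh1. Zeb1 (ENSMUSG00000024238, chr18:5591860-5775467) measured 102, 124, 83.1 and 73.3 CPM in EtOH tumors 1 to 4 and 64.1, 69.2, 68.6 and 89.3 CPM in calcipotriol tumors 1, 5, 6 and 7. Calcipotriol tumor 7 lay inside the EtOH range, and the log2 fold change was −0.39 ± 0.18 with an upper 95% limit of 0.00 (edgeR's quasi-likelihood test, adjusted p = 0.274). Zeb2 (ENSMUSG00000026872, chr2:44983632-45117395) stayed within 85.9 to 119 CPM in all 8 tumors, with a log2 fold change of 0.14 and a 95% interval of −0.14 to 0.42, the narrowest among the members. Zeb2os lies on the opposite strand of Zeb2 and averaged 119 counts against 2194 for Zeb2, and Gm10125 lies opposite Zeb1 with 30.8 counts against 1878. The share is larger for Grhl2, where Gm16136 on the opposite strand averaged 1.75 counts, and up to 6 in a tumor, against 4 for Grhl2. Whether counting used the strand is not given in the sources used here, so reads of such pairs cannot be told apart.

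The SNAIL factors differed in level. Snai1 (ENSMUSG00000042821, chr2:167538195-167542814) measured 53.4, 51.7, 55.7 and 61.7 CPM in EtOH tumors 1 to 4 and 58.6, 28.6, 33.6 and 46.3 CPM in calcipotriol tumors 1, 5, 6 and 7. The EtOH tumors were close together, and calcipotriol tumors 5, 6 and 7 were below them all while tumor 1 was not. Its log2 fold change was −0.41 ± 0.21 with a 95% interval of −0.87 to 0.05 (edgeR adjusted p = 0.321), and Lasp1 and Ptms had the closest profiles (0.11 for both). Snai2 (ENSMUSG00000022676, chr16:14705852-14709385), known for its role in basal mammary cells, ranged from 1.23 to 4.75 CPM, with a log2 fold change of 0.22 and a 95% interval of −0.93 to 1.37. Its direction turned when calcipotriol tumor 7 was left out, to −0.10. Per kb, Snai1 exceeded Snai2 in all 8 tumors, by 12.2 to 52.0 times.

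Twist1 (ENSMUSG00000035799, chr12:33957671-33959829), a basic helix-loop-helix factor of mesenchyme, was the most abundant of the 5 factors per kb. It measured 248, 229.8, 162 and 145 CPM in EtOH tumors 1 to 4 and 112, 78.8, 151 and 124 CPM in calcipotriol tumors 1, 5, 6 and 7. The groups overlapped only through calcipotriol tumor 6, which lay above EtOH tumor 4. The log2 fold change was −0.75 ± 0.23 with a 95% interval of −1.25 to −0.25 (edgeR's quasi-likelihood test, unadjusted p = 0.00722, adjusted p = 0.109). DESeq2 gave an adjusted p of 0.0224, and over all alternatives it ran from 0.0224 to 0.234. Paqr7 and Adgra2 had the closest profiles (0.14 and 0.15).

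Of 18 other transcription factors tied to the transition, 15 were tested, and edgeR called 1 (Foxq1) higher and 0 lower, against 1.07% and 0.948% of all genes. DESeq2, which gave Foxq1 no adjusted p, called 0 and limma-voom 1. An unadjusted p under 0.05 by edgeR was reached by 4, against 18.4% of all genes, and the median log2 fold change was −0.004 against 0.02 for all genes. Foxq1, a forkhead factor, had 0 counts in all 4 EtOH tumors and 33, 17, 17 and 44 counts in calcipotriol tumors 1, 5, 6 and 7. Against a floor of 3 counts per library it was at least 8.74-fold higher. Because it was at 0 in all EtOH tumors, it passed the filter on low counts through the calcipotriol tumors alone, where it had to be higher. Its edgeR adjusted p was 0.0233, and 0.00994 with no filter, over a range of 0.00994 to 0.0875. Leaving out EtOH tumor 1 or 2 or calcipotriol tumor 5, 6 or 7 ended the call, with adjusted p from 0.0508 to 0.0875. Id3, Hmga2, Sox4 and Id1 were the most abundant per kb on average over the 8 tumors. Their log2 fold changes were 0.19, 0.18, −0.004 and 0.74, and none was called. The sign for Sox4 turned with most other scalings and tests.

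TGF-beta can start the transition, and 12 genes of its pathway were listed, which are ligands, receptors, the signal carriers Smad2, Smad3 and Smad4, and the inhibitors Smad7, Ski and Skil. Of the 12, 3 had positive and 9 negative fold changes, a tally that mixes genes of opposite function, 0 passed both thresholds by edgeR, DESeq2 or limma-voom, 1 reached an unadjusted p under 0.05 by edgeR, against 18.4% of all genes, and the median log2 fold change was −0.20 against 0.02. That one was Tgfb1, with 271 ± 22.8 CPM in EtOH tumors and 183 ± 64.2 CPM in calcipotriol tumors (SD, n = 4 each, log2 fold change −0.57 ± 0.22, edgeR adjusted p = 0.199). Ski, Tgfb3 and Tgfbr3, the other abundant genes of the list, had log2 fold changes of −0.15, −0.32 and −0.27.

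The 9 tested members were also set against each other within each tumor, as ratios per kb and without a test. Of the 36 pairs, 4 did not overlap between the groups (Cdh2/Cdh1, Cdh2/Zeb2, Vim/Zeb2 and Zeb1/Zeb2) and 32 did, against 13.2% without overlap among all pairs of tested genes, so such separation was about as common as elsewhere. N-cadherin over E-cadherin RNA (Cdh2/Cdh1) was 1.95, 3.36, 0.750 and 1.11 in EtOH tumors 1 to 4 and 0.492, 0.470, 0.660 and 0.576 in calcipotriol tumors 1, 5, 6 and 7. Per kb, Cdh2 thus exceeded Cdh1 in EtOH tumors 1, 2 and 4, and Cdh1 exceeded Cdh2 in all 4 calcipotriol tumors. Which of the 2 was higher rests on their exon lengths, 8066 bases for Cdh2 and 4574 for Cdh1. In CPM, Cdh2 exceeded Cdh1 in all 4 EtOH tumors and in calcipotriol tumors 6 and 7. Zeb1/Zeb2 was 2.22, 2.44, 1.67 and 1.66 in EtOH tumors and 1.238, 1.32, 1.55 and 1.46 in calcipotriol tumors, so Zeb1 was the higher of the pair per kb in every tumor. That order rests on exon lengths of 10266 bases for Zeb1 and 19942 for Zeb2. In CPM, Zeb2 was the higher in EtOH tumors 3 and 4 and in all 4 calcipotriol tumors.

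Promoter sequence was at hand in RefSeq for 5 of the 10 genes (Vim, Zeb2, Snai1, Twist1 and Epcam), as 250 bases before to 50 after a start on GRCm38.p6. Both strands were searched for CACCTG, the box read by ZEB and SNAIL factors, for CANNTG, the general E-box that contains it, for the grainyhead palindrome AACCGGTT, and for direct repeats of AGGTCA or AGTTCA with a 3-base spacer, as bound by the vitamin D receptor. Of 32851 promoters of 300 bases, 20.2% held CACCTG, 72.3% CANNTG and 0.146% AACCGGTT, while 2 held the AGGTCA repeat and 0 the AGTTCA repeat. Epcam held 2 CACCTG boxes, beginning 187 and 19 bases before the start, and Snai1 held 1, at 126 bases. None of the other 6 windows (Vim, Twist1 and 4 starts of Zeb2) held CACCTG or CANNTG, and none of the 8 held the grainyhead palindrome or a repeat. A match is a description of letters only. The windows of Epcam, the most variable member, of Snai1, the other with a box, and of Vim and Twist1, which were both lower at an unadjusted p under 0.05, are shown with CACCTG or its reverse complement in capitals (Epcam chr17:87635729-87636028, Snai1 chr2:167537945-167538244, Vim chr2:13574061-13574360 and Twist1 chr12:33957421-33957720, all plus strand).
Epcam: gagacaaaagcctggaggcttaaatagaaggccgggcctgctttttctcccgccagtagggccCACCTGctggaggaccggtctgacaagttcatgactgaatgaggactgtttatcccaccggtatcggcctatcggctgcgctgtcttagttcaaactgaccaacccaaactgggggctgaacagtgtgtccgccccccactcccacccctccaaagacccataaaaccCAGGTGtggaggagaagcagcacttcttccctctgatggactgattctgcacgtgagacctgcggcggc
Snai1: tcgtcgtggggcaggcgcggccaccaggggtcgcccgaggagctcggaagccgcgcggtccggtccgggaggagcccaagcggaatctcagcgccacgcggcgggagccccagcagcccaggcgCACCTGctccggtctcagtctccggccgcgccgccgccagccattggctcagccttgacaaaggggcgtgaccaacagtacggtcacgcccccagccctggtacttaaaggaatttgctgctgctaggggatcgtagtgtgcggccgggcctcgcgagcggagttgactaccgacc
Vim: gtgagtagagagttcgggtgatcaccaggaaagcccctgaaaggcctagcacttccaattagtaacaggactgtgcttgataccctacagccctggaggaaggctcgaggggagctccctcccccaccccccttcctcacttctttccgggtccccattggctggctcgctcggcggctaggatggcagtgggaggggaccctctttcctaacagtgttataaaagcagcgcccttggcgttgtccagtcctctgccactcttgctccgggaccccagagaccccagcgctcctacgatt
Twist1: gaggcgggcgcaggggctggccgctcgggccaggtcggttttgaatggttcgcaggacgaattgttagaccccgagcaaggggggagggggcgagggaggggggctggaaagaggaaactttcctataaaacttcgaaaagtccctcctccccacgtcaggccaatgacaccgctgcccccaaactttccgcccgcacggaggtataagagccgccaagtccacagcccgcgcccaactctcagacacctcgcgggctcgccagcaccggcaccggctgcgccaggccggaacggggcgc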

How the data were processed

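Bulk RNA was measured in 8 tumors, 4 per group, which the methods call biological replicates. The authors deposited 1 table of estimated counts per gene. The submitters' processing notes name STAR 2.5.3, RSEM 1.3.1, DESeq2 1.24.0 and GRCm38; the annotation and strand setting are not given in the sources used here. The labels name a NovaSeq and the methods a HiSeq. The planned test assumed counts, and the estimated counts, of which between 4.20% and 6.22% per library were not whole, were rounded.

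Of 55414 identifiers, 52081 matched a symbol in GENCODE M21, which also gave positions and exon lengths. Annotated exons of all transcripts were merged, so levels per kb are low for genes with rarely used exons. Genes passed edgeR's filterByExpr, 14458 in all. After TMM scaling, edgeR 4.0.16 (R 4.3.3) fitted all 8 tumors by its quasi-likelihood test with no covariate, and p-values were adjusted by Benjamini-Hochberg over all genes tested. Log2 CPM used a prior count of 2. Alternatives used DESeq2 1.42.0, limma-voom (limma 3.58.1), other filters and scalings, and each tumor left out. The fit was also run on simulated data, and no result given here rests on that run.

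The members and lists were chosen with earlier results of these data known. Named genes were the 10 members; list genes past both thresholds; in each pathway list the 4 tested genes highest in CPM per kb; in each marker list the gene adding the most CPM; and for members spanning over 1 in log2 CPM the 2 genes of closest profile with a mean of at least 50 counts. Csn2, Csn3, Wap, Flg, Dsg1a, Zeb2os, Gm10125, Gm16136, Krt19, Nectin4, Plekha7, Smad7, Skil, Spint2, Lor, Adipoq and epithelial genes at 0 were named after their values were seen. Intervals and floors cover counting error or the spread of these tumors only.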

Additional observations from a re-analysis of the deposited data

Results flagged for a closer look

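Each group of 4 tumors was searched for a tumor far from the other 3, by Dixon's ratio of a gap to the whole range. This was done for the 10 members, 17 lists of other genes and the total counts, or 56 groups, and chance picks about 1 in 20 groups. On the log2 scale, with 0.1 added to CPM, 0 of the 56 passed Dixon's 95% value. With no logarithm, a scale added after seeing the data, 2 of the 56 passed. One was Vim in EtOH tumor 2, at 5910.1 CPM against 4737, 4521 and 4535 CPM in EtOH tumors 1, 3 and 4 (ratio 0.844). The other was the T cell sum in calcipotriol tumor 1, at 15.5 CPM against 4.89, 4.09 and 2.76 CPM in calcipotriol tumors 5, 6 and 7 (ratio 0.832). The spread of Epcam in the calcipotriol group did not count on either scale, because 2 tumors were high.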

How the results depend on the processing

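The members tested stayed short of both thresholds under every other filter, scaling and test and with each tumor left out, but 2 (Vim and Twist1) passed, among 1201 genes, with DESeq2 and no fold change minimum, a setting chosen after seeing the data. The number of genes past both thresholds was 292, and became 458 with no filter on low counts and 640 with DESeq2. Leaving out 1 tumor gave 110 to 642, highest without calcipotriol tumor 1, and otherwise 137, 117, 175 and 233 without EtOH tumors 1 to 4 and 123, 110 and 116 without calcipotriol tumors 5, 6 and 7. Fewer tumors make a smaller test, but the cause of the rise without calcipotriol tumor 1 was not tested. The filter removed 1 member, against 0 with no filter and 2 with at least 10 counts in every tumor. With no filter, the median log2 fold change of all genes moved from 0.02 to 0.11.

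Directions turned only for uncalled fold changes. With 1 tumor left out, the log2 fold change ran from −0.10 to 0.53 for Snai2, −0.51 to 0.16 for F11r, −0.076 to 0.028 for Ctnnb1, −0.095 to 0.22 for S100a4, −0.13 to 0.13 for Sox4, −0.50 to 0.053 for Tgfbr3 and −0.11 to 0.76 for S100a9. Snai2 was negative only without calcipotriol tumor 7. For Sox4 it was 0.0005 with DESeq2 size factors and with DESeq2, 0.0037 with no filter, 0.0062 with at least 10 counts in every tumor and 0.0142 with limma-voom. The cause was not tested. DESeq2 gave Foxq1 no adjusted p. Depth limits Grhl2, Snai2 and the EtOH values of Epcam, which rest on 0 to 112 counts a tumor. No paired analysis was possible because the groups share only replicate number 1.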

Other observations

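Further cell types were read from their markers in the same tumors, and their part in the levels of the 10 genes was not tested. The 8 erythroid markers, led by Hbb-bs, summed to 5599.9, 5839, 3512 and 3459.6 CPM in EtOH tumors 1 to 4 and 821, 435, 609 and 532 CPM in calcipotriol tumors 1, 5, 6 and 7. Of 7 tested, 5 fell (Hba-a1, Hba-a2, Hbb-bs, Hbb-bt and Alas2), against 0.948% of all genes, and the near-identical alpha and beta globin copies share reads. Adipocyte markers summed to 28.4, 33.5, 36.3 and 37.4 CPM against 13.1, 19.2, 20.8 and 13.6 CPM, and the most abundant, Fabp4, fell (log2 fold change −1.19, edgeR adjusted p = 0.0082). That sum rested on Fabp4, because the other 5 markers summed to 0, 0, 7.82 and 6.09 CPM in EtOH tumors and 0.318, 7.26, 3.56 and 2.08 CPM in calcipotriol tumors, and Adipoq had a positive log2 fold change of 0.80 (edgeR adjusted p = 0.818).

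The 8 mammary basal markers, led by Acta2, summed to 59.3, 67.8, 76.1 and 87.5 CPM in EtOH tumors and 49.2, 58.1, 94.8 and 88.7 CPM in calcipotriol tumors. Within that list Trp63 rose with Krt14 (log2 fold change 2.57, edgeR adjusted p = 0.0333), while Mylk fell (−1.44, edgeR adjusted p = 0.00747). The Trp63 call was lost on leaving out EtOH tumor 1, 2 or 3 or calcipotriol tumor 5, 6 or 7, and also with limma-voom. It held in 6 of 13 alternatives. Trp63 had 24, 24, 15 and 6 counts in EtOH tumors 1 to 4, and it too reached the filter on low counts only with the calcipotriol tumors. The 11 mammary luminal markers, led by Krt8, summed to 1276, 1346, 1013 and 1085 CPM in EtOH tumors and 879.8, 593, 663 and 589 CPM in calcipotriol tumors, and edgeR called 0 of 7 tested, against 2.02% of all genes, with 3 at an unadjusted p under 0.05, against 18.4%. DESeq2 called 1 and limma-voom 0. T cell markers, led by Cd2, summed to 3.84, 4.14, 1.70 and 1.72 CPM in EtOH tumors and 15.5, 4.89, 4.09 and 2.76 CPM in calcipotriol tumors. Of 5 tested, 5 had positive fold changes (median 1.14 in log2 against 0.02 for all genes), edgeR, DESeq2 and limma-voom called 0, and 0 reached an unadjusted p under 0.05 by edgeR, against 18.4%. Neutrophil markers, led by S100a9, ran from 31.4 to 154 CPM and overlapped between the groups.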
